A study of Drosophila melanogaster with 20 samples.

Results

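Of the 15473 transcripts measured in Drosophila melanogaster wings, 71 differed between wings with activated Thickveins and control wings in one direction in the pupa and in the other in the larva, by their group means. They were chosen from the measured values, and not by a test. Each had a pupal response and a larval response of opposite sign and at least 0.35 in size on the log2 scale, the responses differed by at least 1, and the difference had the same sign in all 5 title numbers, the replicate numbers in the sample titles. A response is the mean log2 intensity of Tkv wings minus that of control wings at the same stage. The larval response, the pupal response and their difference are therefore a description, and the counts of test calls given for them below support nothing. Spread between arrays can also meet such conditions, so some of the 71 may owe their place to it. Of the 71 transcripts, 34 were higher in pupal and lower in larval Tkv wings and are called pupal-raised, and 37 were lower in pupal and higher in larval Tkv wings and are called pupal-lowered.

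The arrays came in 4 groups of 5, each array with total RNA of 10 dissected wings. Pupal Tkv wings and pupal control wings were taken 24 h after pupa formation, staged from white prepupae, and larval Tkv wings and larval control wings from wandering larvae of instar 3. Tkv wings carried a UAS transgene for activated Thickveins driven by Gal4, and control wings had no such transgene and came from a matched strain. The labels used here do not name the Gal4 driver or the cells in which it is active. All animals, controls included, were grown at 18 °C and shifted to 28 °C for 10 h before dissection. Nothing in the labels ties samples to separate crosses or days, so a p-value measures the spread between these samples. A strain difference other than the transgene cannot be told apart from the response, and in pooled tissue fewer cells of a type and less RNA per cell cannot be told apart either.

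Thickveins is a type I receptor for Decapentaplegic, a ligand of the BMP family. The active receptor phosphorylates the transcription factor Mad, which enters the nucleus with Medea and, among other effects, represses the repressor gene brinker. In the larval wing disc this pathway is known for growth and for patterning along the anterior to posterior axis, and in the pupal wing for the differentiation of veins. The wing thus reads the same receptor at 2 stages with different outcomes, and the design allows the response at one stage to be compared with that at the other.

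The files give FlyBase transcript IDs without gene names. RefSeq's gene synonyms (assembly Release 6) held 44 of the array's IDs, of which 0 were among the 71. No gene name, role, position or sequence is therefore given for the transcripts below, marker genes of the wing and of other cell types were not looked up, and the labels were not checked against the tkv transcript. Several IDs may belong to the same gene, so the 71 transcripts may stand for fewer genes.

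Opposite responses of this size were a small part of the array. Pupal and larval responses differed in sign for 6872 transcripts (44.4%), of which 203 had both responses of at least 0.35 and 106 also a difference of at least 1. The condition on the 5 title numbers took out 35 of these. Under mirrored conditions for responses of the same sign (both at least 0.35, a sum of at least 1, the sum with the same sign in all 5 numbers), 405 transcripts were found. Just inside the conditions, the smaller of the 2 responses was 0.360 and the smallest difference 1.03. Just outside, the values were 0.345 and 0.998.

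**Figure D1:**
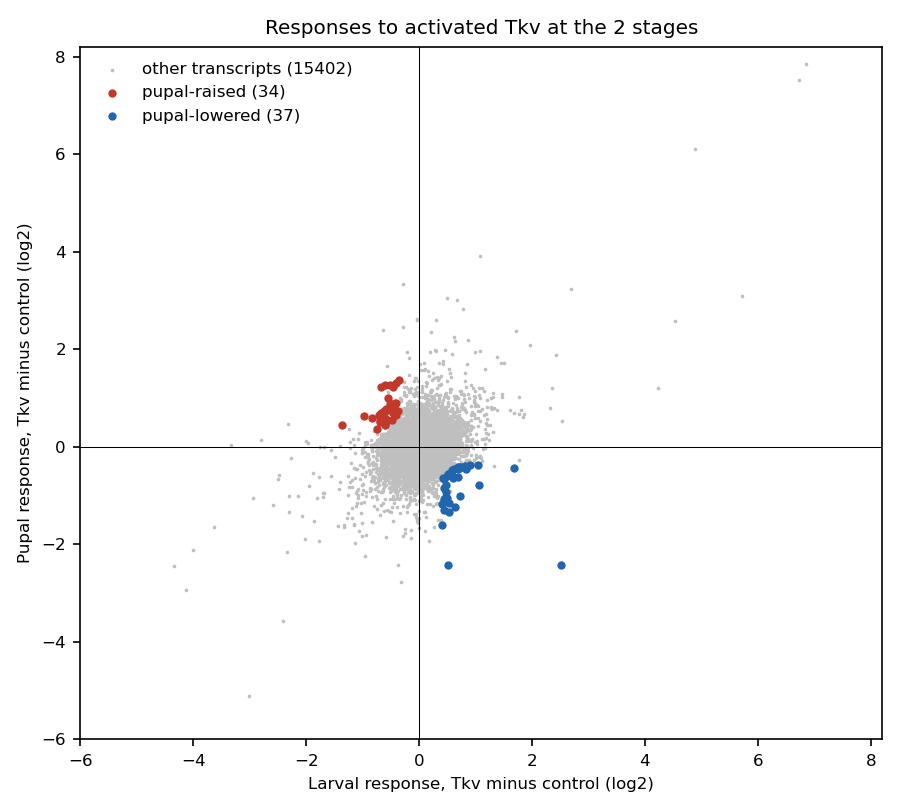
Larval response (horizontal axis) and pupal response (vertical axis) of each transcript, both Tkv minus control on the log2 scale. The 34 pupal-raised transcripts (red) and the 37 pupal-lowered ones (blue) lie close to the cloud of other transcripts (grey), apart from a few such as the blue point at a larval response of 2.52 and a pupal response of -2.43.

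The responses of the 71 transcripts were moderate in size. The median pupal response was 0.72 in pupal-raised transcripts (range 0.36 to 1.36) and -0.64 in pupal-lowered ones (range -2.43 to -0.37). The median larval response was -0.57 in pupal-raised transcripts (range -1.36 to -0.36) and 0.59 in pupal-lowered ones (range 0.40 to 2.52). The pupal response was the larger in size for 43 transcripts, 23 pupal-raised and 20 pupal-lowered, and the larval response for the other 28. Across the array the median size was 0.15 for the pupal and 0.14 for the larval response.

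Most of the 71 were chosen by group means that did not pass a test at either stage on its own. In a limma fit over all transcripts (adjusted p under 0.05), 15 of them were called for the pupal response, against 3.16% of the array, 7 for the larval response, against 1.4%, and 18 for the difference between the responses, against 0.679%. These contrasts chose the transcripts, so nothing is read from these counts. At neither stage were 51 called, 13 were called in the pupa only, 5 in the larva only, and 2 at both stages in opposite directions.

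The groups themselves overlapped for most of the 71 transcripts. All pupal Tkv arrays lay on one side of all pupal control arrays for 18 of them (4.46% of the array), and the larval groups were apart for 15 (3.35% of the array). For 43 of the 71 the Tkv and control arrays overlapped at both stages, as they did for 14399 of the 15473 transcripts on the array. Overlap was thus less frequent in the 71 than on the array. The conditions favour groups that are apart, so nothing is read from this. The groups were apart at both stages for 5 transcripts (0.872% of the array has this property): FBtr0071698, FBtr0083371, FBtr0078220, FBtr0087444 and FBtr0085136. These 5 were picked out after their values were seen, and 4 are pupal-lowered and 1 is pupal-raised.

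FBtr0071698 had the largest difference between the responses, -4.95. Its log2 intensity was 6.19, 6.12, 6.43, 5.95 and 6.20 in pupal Tkv wings, against 8.35, 8.12, 9.14, 8.65 and 8.76 in pupal control wings. In larval Tkv wings it was 7.01, 8.01, 8.10, 8.09 and 8.21, against 5.68, 4.85, 5.60, 5.55 and 5.14 in larval control wings. Every pupal Tkv array lay below every pupal control array, and every larval Tkv array above every larval control array. The level was 5.38-fold lower in pupal Tkv wings and 5.73-fold higher in larval Tkv wings than in the controls of the stage. Control wings were thus higher in the pupa than in the larva by 3.24, while in Tkv wings the pupal value was lower by 1.71 (a change of -1.71), so the stages changed places.

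FBtr0083371 was the other transcript called at both stages, and it was picked out for that, so its calls are no evidence for it. Its log2 intensity was 10.61, 10.77, 10.88, 11.14 and 11.03 in pupal Tkv wings, against 11.94, 12.06, 12.06, 12.22 and 11.91 in pupal control wings. In larval wings it was 9.59, 9.90, 9.48, 9.66 and 9.53 with activated Tkv, against 8.93, 9.40, 9.24, 9.19 and 8.74 in controls. The arrays of a group lay close together (SD 0.21 and 0.12 in pupal Tkv and control wings, 0.17 and 0.26 in larval Tkv and control wings), and its spread within groups, 0.20, was the smallest of the 71. The pupal response was -1.15 and the larval response 0.53, and both genotypes were higher in the pupa, Tkv wings by 1.26 and control wings by 2.94.

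FBtr0087676 had the second most negative difference, -2.93, and it came mostly from the pupa. In pupal Tkv wings its log2 intensity was 8.03, 6.98, 7.44, 7.71 and 7.54, against 10.20, 10.27, 10.13, 8.50 and 10.72 in pupal control wings. In larval Tkv wings it was 8.50, 8.45, 8.24, 8.54 and 8.83, against 7.80, 7.87, 7.73, 8.05 and 8.58 in larval control wings. The pupal groups were apart, although replicate 4 of the pupal controls lay well below the other pupal controls. The larval groups overlapped through the fifth control array, and the larval response was 0.50, with a positive sign in all 5 title numbers.

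FBtr0078602 had the largest positive difference, 1.89. Its log2 intensity was 10.72, 11.76, 10.73, 10.88 and 10.08 in pupal Tkv wings, against 9.37, 9.66, 9.64, 9.94 and 9.46 in pupal control wings. In larval Tkv wings it was 5.67, 5.91, 5.56, 5.32 and 5.80, against 5.97, 6.02, 7.84, 5.08 and 6.71 in larval control wings. The pupal groups were apart. In the larva the control arrays spread over both sides of the Tkv arrays, and the larval response of -0.67 was -0.30 without replicate 3 of the larval controls.

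FBtr0070423 came next among the pupal-raised, with a difference of 1.88. In pupal Tkv wings its log2 intensity was 4.30, 4.97, 10.13, 6.10 and 4.78, against 4.60, 4.78, 4.71, 5.13 and 4.72 in pupal control wings. In larval Tkv wings it was 4.69, 4.67, 5.26, 4.72 and 5.01, against 5.34, 5.12, 6.72, 4.87 and 5.33 in larval control wings. One pupal Tkv array, replicate 3, held the pupal difference: the pupal response was 1.27 with it and 0.25 without it, below the limit of 0.35. The larval response of -0.61 was -0.30 without replicate 3 of the larval controls. By group means, 6.23% of all transcripts were dimmer in pupal control wings and 8.74% in larval Tkv wings. In larval control wings 21.7% were dimmer, and in pupal Tkv wings 29.9%.

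**Figure D2:**
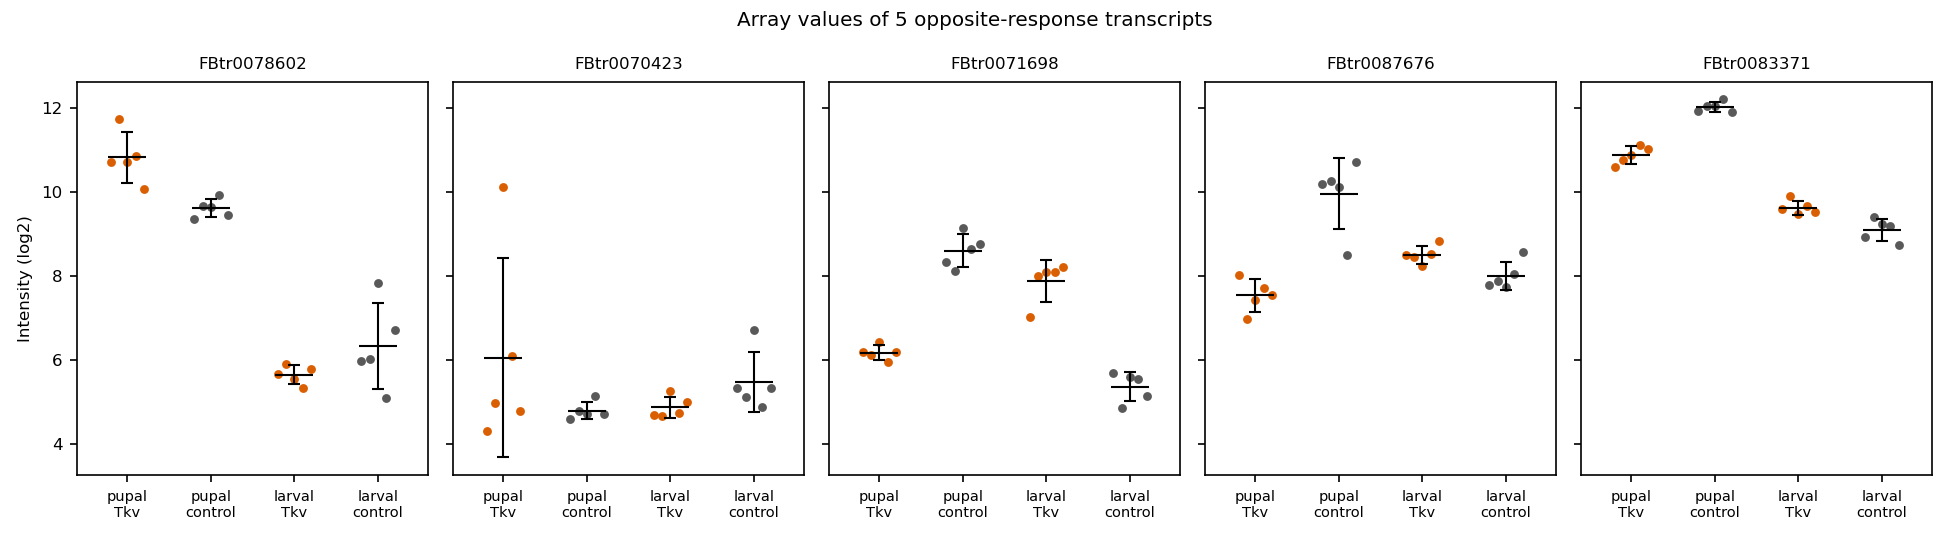
Log2 intensity on each array (points) with mean and SD (n = 5) for 5 opposite-response transcripts, in pupal Tkv, pupal control, larval Tkv and larval control wings from left to right. FBtr0071698 and FBtr0083371 have groups that are apart at both stages, while a single pupal Tkv array at 10.13 sets the mean of FBtr0070423.

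The other transcripts with groups apart at both stages were larger at one stage. FBtr0085136 was the only pupal-raised one of these 5. Its log2 intensity was 13.75, 13.72, 13.48, 13.74 and 13.67 in pupal Tkv wings, against 12.96, 13.31, 13.28, 13.35 and 13.25 in pupal control wings. In larval Tkv wings it was 5.71, 5.74, 5.46, 5.26 and 4.77, against 6.36, 6.59, 7.99, 6.19 and 6.61 in larval control wings. A transcript that was bright in every pupal wing was thus 1.36-fold higher in pupal Tkv wings, and 2.57-fold lower in larval Tkv wings, where it was dim in both genotypes. As in FBtr0078602 and FBtr0070423, the highest larval control value was that of replicate 3. Without that array, and with the sign condition on the 4 complete numbers, 77 transcripts met the conditions, 56 of them among the 71. Such a loss was not particular to that array. Without replicate 1 of larval Tkv wings instead, 77 also met them, 54 of them among the 71.

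FBtr0078220 showed the reverse. Its log2 intensity was 6.07, 7.14, 6.54, 7.23 and 6.78 in pupal Tkv wings, against 7.87, 7.32, 7.31, 7.42 and 7.82 in pupal control wings. It was 11.80, 11.02, 11.12, 11.39 and 11.87 in larval Tkv wings, against 10.16, 10.44, 10.41, 10.94 and 9.98 in larval control wings. This transcript was bright in the larva and dim in the pupa, and activated Tkv went with a higher level where it was bright (1.05) and a lower one where it was dim (-0.80).

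FBtr0087444 was among the brightest of the 71 transcripts, with a mean level of 12.54. Its log2 intensity was 11.25, 10.81, 10.36, 10.55 and 11.48 in pupal Tkv wings, against 11.71, 11.93, 12.17, 11.93 and 11.95 in pupal control wings. It was 13.58, 13.97, 13.98, 13.94 and 14.00 in larval Tkv wings, against 13.54, 13.50, 13.47, 13.33 and 13.32 in larval control wings. The larval groups were apart by a narrow margin, because the first Tkv array lay only just above the first control array.

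Within single title numbers the opposite signs were less regular than the means. A title number stands for 1 slide, which held 1 array of each group, so each number gives a pupal and a larval response of its own. The pupal response had the sign of its mean in all 5 numbers for 32 of the 71 transcripts, in 4 for 30 and in 3 or fewer for 9. The larval response did so in all 5 numbers for 37, in 4 for 25 and in 3 or fewer for 9. Both signs were complete for 15 transcripts, 6 pupal-raised and 9 pupal-lowered. Of all 15473 transcripts, 2039 had a complete pupal sign, 2027 a complete larval sign and 492 both, whether opposite or the same. The conditions favour complete signs, so nothing is read from these counts. The condition on the numbers was set on the difference of the responses, which can keep its sign where one of the 2 responses does not.

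**Figure D3:**
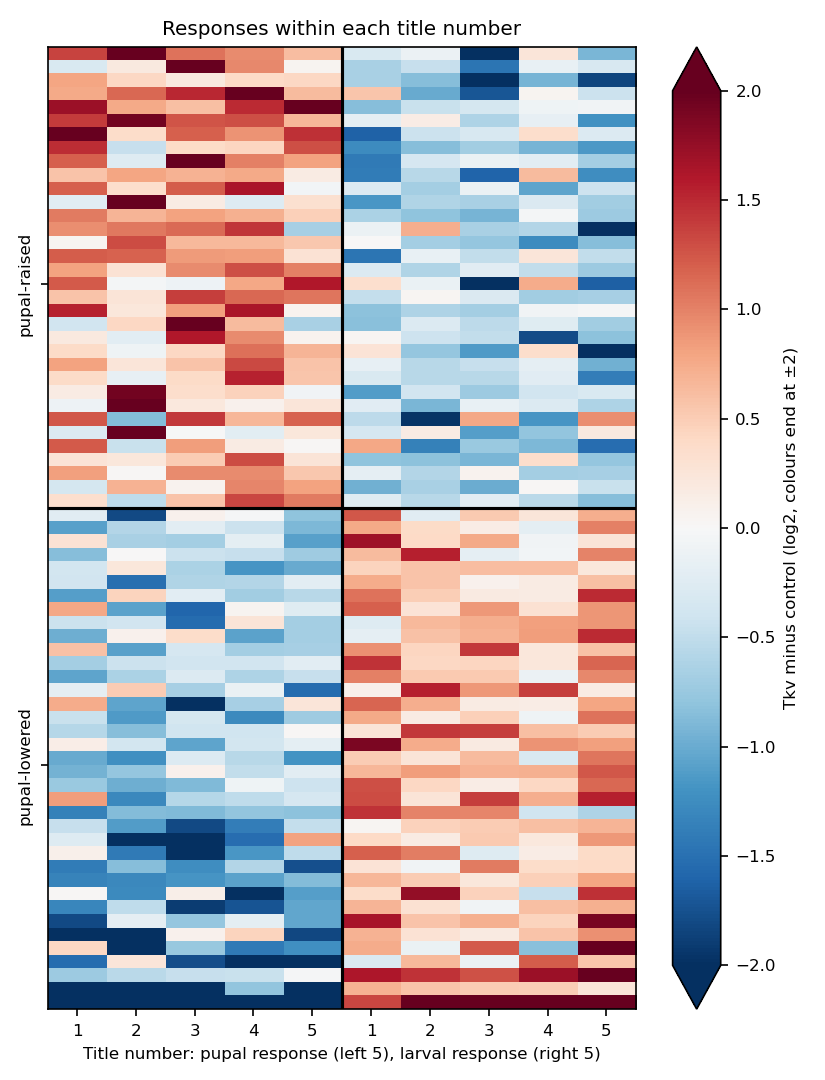
Response within each title number (Tkv minus control, log2; colours end at ±2) for the 71 transcripts, 1 row each, sorted by the difference between the responses, with the pupal response in the left 5 columns and the larval response in the right 5. The 34 pupal-raised transcripts stand above the line and the 37 pupal-lowered ones below it, and cells of the other colour mark single numbers that go against the mean.

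The same measure in arrays that did not choose the transcripts was read by leaving out 1 title number at a time. The conditions were applied to the 16 arrays of the other 4 numbers, with the sign condition on those 4, and the signs were then read in the 4 arrays left out. This chose 92 to 162 transcripts, 606 choices in all, in which a transcript can count up to 5 times. Both signs were the same in the arrays left out for 238 of the 606 choices (39.3%). Among all transcripts of the array, the sign pairs sought occurred in the same numbers at a rate of 24.2%. The share was 33.6, 34.6, 50.9, 32.7 and 51.1% with numbers 1 to 5 left out, against 24.7, 21.1, 22.9, 26.9 and 24.8% of all transcripts, and was thus above it each time.

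The difference between the responses kept its sign in the arrays left out in 410 of the 606 choices (67.7%), against 49.7% of all transcripts. The pupal sign alone returned in 380 choices (62.7%) and the larval sign alone in 382 (63.0%). The median difference between the responses was 1.25 to 1.30 in the arrays that chose the transcripts and 0.23 to 0.83, in the same direction, in the arrays left out. Most choices made on 4 numbers therefore did not show both signs in the fifth. Of 357 transcripts chosen at least once, 17 were chosen whichever number was left out, 7 pupal-raised and 10 pupal-lowered. A transcript chosen in every round must also be among the 71, so that they are gives no support. The 17 held the 5 transcripts with groups apart at both stages, while FBtr0078602 and FBtr0070423 were each chosen in 4 of 5 rounds.

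**Figure D4:**
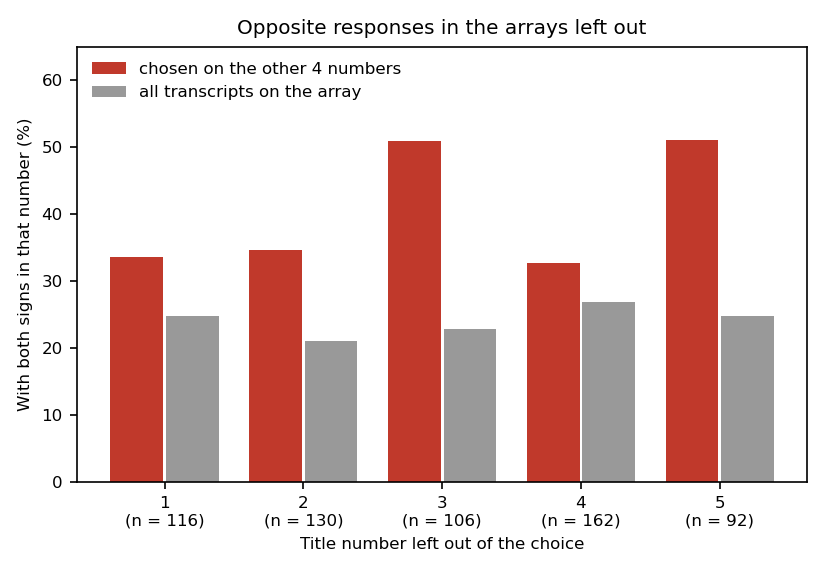
Share of transcripts with both opposite signs in the title number left out (vertical axis, %), for transcripts chosen on the other 4 numbers (red) and for all transcripts on the array with the same sign pairs (grey). The red bars reach 32.7 to 51.1% and the grey bars 21.1 to 26.9%.

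The 71 transcripts were mostly dim and variable. The median of their mean levels was 7.50 (range 4.88 to 13.66), against 9.33 for all transcripts, and 57 of the 71 (80.3%) lay below that array median. The median SD within groups was 0.47, against 0.30 for all transcripts, and 64 of the 71 (90.1%) had an SD at or above the array's median. Pupal-raised transcripts had a median level of 7.25 and an SD of 0.48, and pupal-lowered ones a median level of 7.86 and an SD of 0.45. A variable transcript reaches a fixed size of response more easily, so the SD is not independent of the choice. The 71 may therefore hold transcripts that met the conditions through spread alone, and how many of the 71 did so was not determined. On arrays simulated with the spread of these arrays, transcripts with no planted response also met the conditions. In arrays left out both signs returned for 39.3% of choices, against a rate of 24.2% among all transcripts. A response in the pupa only or in the larva only, with spread at the other stage, would also raise this share. The share therefore cannot show that both responses were present, or how many of the 71 met the conditions through spread. The rate of 24.2% was also not matched to the choices in level or SD. Of the 71, 54 (76.1%) were read by 5 probe pairs and 17 by 4, and across the array 65.3% were read by 5.

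A measure that the choice did not use is the stage change averaged over genotypes, the mean of pupal Tkv and pupal control wings minus the mean of larval Tkv and larval control wings. In this balanced design it is orthogonal to both responses, given equal spread in the groups. The spread differed between groups less for some of the 71, such as FBtr0083371 (SD 0.12 to 0.26), than for others. FBtr0070423 had an SD of 2.37 in pupal Tkv, 0.20 in pupal control, 0.26 in larval Tkv and 0.72 in larval control wings. Where spreads are unequal, the stage change is not fully separate from the choice. It was tested for all transcripts with limma, in a fit of 4 group means over all 20 arrays. Of the 71 transcripts 52 (73.2%) passed at an adjusted p under 0.05, against 51.5% of the array. Of the 52, 29 were higher in the pupa (24.4% of the array was called in that direction) and 23 lower (27.2% of the array).

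The stage changes were large. Their median size was 1.25 for the 71 transcripts, against 0.33 for all transcripts, and 41 of the 71 (57.7%) changed at least 2-fold, against 16.8% of the array. At least 4-fold changes were found for 22 (31.0%), against 6.39% of the array. The stage change had the same sign in all 5 title numbers for 51 of the 71, and 54.6% of the array had this property. Among pupal-lowered transcripts 19 were called higher and 11 lower in the pupa, and among pupal-raised ones 10 higher and 12 lower.

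Level and spread moved the background of this test, so the counts are also given separately above and below the array medians of level and SD. Of the 57 transcripts dimmer than the array median 38 were called (66.7%), against 39.6% of all such transcripts, and of the 14 brighter ones all 14 were called, against 63.5%. Of the 64 with an SD at or above the median 45 were called, against 43.4%, and of the 7 with a smaller SD all 7, against 59.7%. Among the 53 that were both dim and variable 34 were called, against 39.7% of such transcripts.

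**Figure D5:**
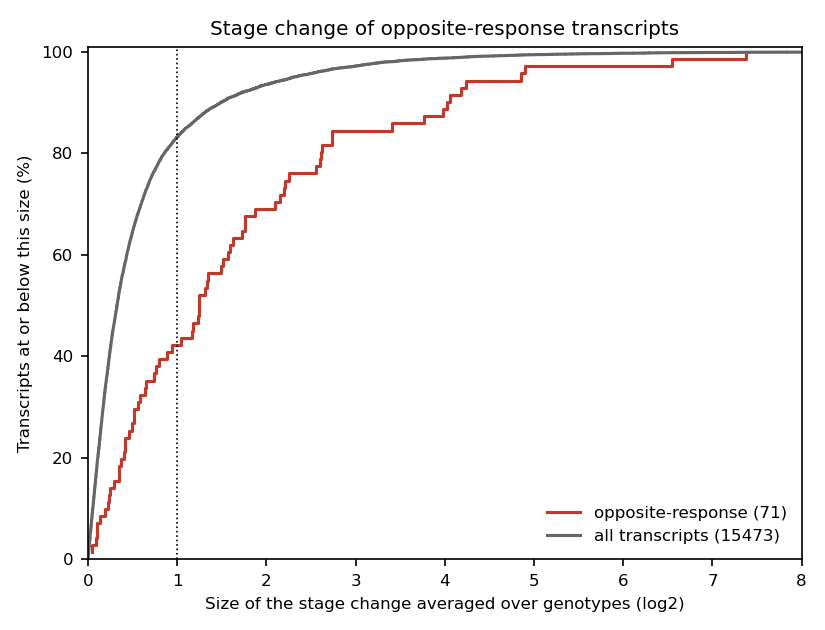
Cumulative share of transcripts (vertical axis, %) by the size of the stage change averaged over genotypes (horizontal axis, log2), for the 71 opposite-response transcripts (red) and all 15473 transcripts (grey). The dotted line marks a 2-fold change, which 57.7% of the 71 and 16.8% of all transcripts reached.

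The largest fitted stage rises among the 71 belonged to FBtr0085136 and FBtr0089142. FBtr0085136 rose by 7.38 ± 0.18 (log2, SE, limma adjusted p = 2.65e-17, n = 10 arrays per stage). In larval Tkv wings 19.7% of all transcripts were dimmer than it and in larval control wings 35.7%. No background level was measured here, so a size of change that starts from a dim level may be too small. FBtr0089142 was at 10.94, 12.01, 11.46, 11.49 and 11.74 in pupal Tkv wings and at 11.80, 12.00, 11.89, 11.95 and 12.46 in pupal control wings. In larval wings it was at 5.98, 5.92, 5.10, 5.02 and 5.61 with activated Tkv and at 5.35, 4.37, 5.27, 5.08 and 4.61 in controls. All 10 pupal arrays lay far above all 10 larval arrays, a rise of 6.54 ± 0.17 (limma adjusted p = 5.66e-17). Its responses were smaller than this by far, -0.49 in the pupa and 0.59 in the larva, and the larval sign held in 3 of 5 numbers.

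The largest fitted stage falls were those of FBtr0074393 and FBtr0078220. FBtr0074393 was at 3.83, 4.68, 4.47, 4.39 and 3.99 in pupal Tkv wings and at 4.81, 4.60, 4.10, 5.47 and 4.67 in pupal control wings. In larval wings it was at 8.90, 9.87, 9.69, 9.93 and 10.08 with activated Tkv and at 9.09, 9.28, 9.00, 9.09 and 8.59 in controls. It fell by 4.85 ± 0.17 in the pupa (limma adjusted p = 5.01e-15). In pupal Tkv wings only 0.116% of all transcripts were dimmer and in pupal control wings 4.96%, so the fall may be larger than its value, and the pupal response of -0.46, with its sign in 3 of 5 numbers, lies at the dim end of the arrays. FBtr0078220 fell by 3.77 ± 0.16 (limma adjusted p = 1.07e-13). The stage change of FBtr0071698 was 0.76 ± 0.16 (limma adjusted p = 3.91e-04), that of FBtr0083371 2.10 ± 0.09 (limma adjusted p = 1.39e-13), that of FBtr0087444 -2.25 ± 0.12 (limma adjusted p = 2.33e-12) and that of FBtr0078602 4.23 ± 0.26 (limma adjusted p = 1.96e-11).

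Activated Tkv went with a smaller stage change for about as many of the 71 as with a larger one. The change between stages was smaller in size in Tkv than in control wings for 38 (53.5%) and larger for 33, and across the array it was smaller for 53.8%. Among the 52 transcripts called for the stage change these numbers were 31 (59.6%) and 21, and 58.3% of the called transcripts of the array had the smaller change in Tkv wings. The shares of the 71 were thus close to those of the array. In 25 of the 71 (35.2%), the stage change had opposite signs in Tkv and control wings, against 18.3% of the array. It was so in 17 of the 34 pupal-raised transcripts (50%) and in 8 of the 37 pupal-lowered ones (21.6%), one of which was FBtr0071698. The difference between the responses, which the conditions used, is also the difference between these stage changes, so nothing is read from the shares.

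The transcripts most like the 71 are those with a difference of the same minimum size that failed at least 1 condition on the signs or sizes of the responses. There were 147 with a difference of at least 1 and the same sign in all 5 numbers. Their pupal response had a median size of 1.17 and their larval response one of 0.29, against 0.69 and 0.58 in the 71. They were brighter (median level 8.26, against 7.50) and had a smaller SD (0.37, against 0.47). For the stage change 120 of the 147 (81.6%) were called and 67.3% changed at least 2-fold, against 73.2% and 57.7% of the 71, so the frequent stage changes are not particular to the 71. Stage changes of opposite sign in Tkv and control wings were found in 36 of the 147 (24.5%), against 25 of the 71 (35.2%). The difference between the 2 sets was not tested.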

How the data were processed

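The arrays were NimbleGen arrays with 1 dye, Cy3, with 1 deposited file per array. Per the file headers, each deposited value is an intensity per transcript from 3 to 5 probe pairs, and the submitters' processing notes name RMA, with version, settings and genome build not given in the sources used here. Deposited intensity values ran from 12.2 to 62182. The deposited series table holds their log2 to within 5e-09. Differences of dim transcripts may be understated near background, which was not measured here. A second deposited column, of an error with no stated unit ("other"), was not used. The deposited number of probe pairs was counted.

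Intensities were put on the log2 scale and quantile-normalized over all 20 arrays, since array medians ranged from 9.19 to 9.59. Quantile normalization would hide a shift of all transcripts. No transcript was left out. The limma package (3.58.1, under R 4.3.3) gave the tests (4 group means, 16 residual degrees of freedom, eBayes, two-sided, Benjamini-Hochberg over 15473 transcripts, 0.05), checked on simulated arrays. For arrays no depth applies, and their number limits precision. No 2 arrays of a group were alike (lowest median absolute difference 0.18).

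File names put each title number on a slide of its own (5 slides). Same-numbered arrays had deviations from group means correlated at -0.19 to 0.29, and differently numbered ones at -0.22 to 0.26. Within numbers 1, 3 and 5 all correlations were positive (0.03 to 0.29, 0.02 to 0.24 and 0.03 to 0.17). Within numbers 2 and 4 they had both signs. The numbers are a slide block, and these ranges do not settle whether they act as pairs. The main fit left the block out, and counts from fits with it are given below. The transcripts and tests were chosen with earlier results of these data known. Named are the 2 largest differences in each direction, the 2 largest called stage rises and falls, and those called or apart at both stages, the last chosen after their values were seen. Members of preset gene and cell type lists could not be identified, so the lists have no result. Alternatives covered normalization, blocks, fitting, thresholds and arrays left out. Figures used matplotlib 3.10.9 in Python 3.11.15.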

Additional observations from a re-analysis of the deposited data

Results flagged for a closer look

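In 7 of the 40 groups of 5 arrays of the 10 transcripts given by ID, the highest or lowest array stood apart by Dixon's ratio, its gap to the nearest array over the range of the group (above 0.71), which chance alone does in about 1 of 20 groups. The ratio is relative to the group's own range, so small gaps in tight groups can pass. Over all 71 transcripts it was 18 of 284 groups (6.34%). The arrays of the 10 transcripts were replicate 3 of the larval controls for FBtr0070423 (6.72), replicate 1 of larval Tkv wings for FBtr0071698 (7.01), replicate 4 of the pupal controls for FBtr0087676 (8.50) and replicate 1 of larval Tkv wings for FBtr0087444 (13.58), all log2 intensities. FBtr0085136 had 3 such arrays, replicate 3 of pupal Tkv wings (13.48), replicate 1 of the pupal controls (12.96) and replicate 3 of the larval controls (7.99). Replicate 3 of pupal Tkv wings for FBtr0070423 (10.13), which sets that group's mean, had a ratio of 0.69 and did not pass, because the other arrays of the group were themselves spread.

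The pupal minus larval response was -4.95 for FBtr0071698, -2.93 for FBtr0087676 and -1.68 for FBtr0083371. These are listed because the limma interaction was past its threshold, but that contrast chose the transcripts, so the test supports nothing about them.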

How the results depend on the processing

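The number of opposite-response transcripts depended on the conditions more than on the normalization. It was 71, with 73 (58 of them shared) without further normalization and 69 (62 shared) after median centring. With a smallest response of 0.5 it was 29 (17 pupal-raised, 12 pupal-lowered), with 0.2 it was 115 (53 and 62), and with a difference of at least 1.5 it was 23 (9 and 14). Without the condition on title numbers it was 106, 57 of them pupal-lowered. Leaving out 1 array also relaxes the sign condition to the 4 complete numbers, and gave 72 to 105 (32 to 50 pupal-raised, 40 to 64 pupal-lowered). Leaving out 1 title number relaxes the sign condition in the same way, and gave 91 to 162 (41 to 56 and 50 to 106). The number was 119, 130 and 162 without numbers 1, 2 and 4. When arrays were left out here, the remaining ones were normalized anew.

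The 52 of 71 called for the stage change were 47 to 54 under every alternative run, 48 to 54 with arrays left out. In the run with the dimmest 25% of transcripts left out, 62 of the 71 remained, and 51 of these were called. With title number as a fixed replicate block 52 of the 71 were called, and as a random block 54. The array-wide counts were 8344 and 8362, against 7975. Array-wide counts with arrays left out were 7107 to 8113. The array-wide count for the difference between responses, 105, was 124 and 141 with these blocks, 51 at an adjusted p under 0.01, 66 with slide and array position (an alternative chosen after seeing the data) and 48 to 107 with arrays left out. It was 69 without replicate 3 of the larval controls, and 69, 57, 48, 59 and 62 without title numbers 1 to 5. Choices whose signs returned in the number left out were 39.3%, 37.1% without further normalization and 39.8% after median centring.

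Of 930 recomputed values of the 10 transcripts, 2 changed direction. The stage change of FBtr0070423 (0.25, limma adjusted p = 0.717, not called under any alternative) ranged from -0.26 to 0.47 with arrays left out and was -0.26 without replicate 3 of pupal Tkv wings and -0.05 (-0.0475) without title number 3. FBtr0087676 (0.49, limma adjusted p = 0.0602) was called for the stage change in 6 of 31 refits, with p from 4.36e-04 to 0.249. The cause was not tested. Background was not measured here, so it is not known how many of the 57 transcripts below the array median of level lay near it.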
